A study of Rattus norvegicus with 2 samples.

Results

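The TCF/LEF factors and their corepressors are the proteins through which Wnt signals reach DNA. The list held 10 genes, chosen by symbol: the TCF/LEF factors Tcf7, Tcf7l1, Tcf7l2 and Lef1, the Groucho-type corepressors Tle1, Tle2, Tle3 and Tle4, and the C-terminal binding proteins Ctbp1 and Ctbp2. Of these, 9 were matched among the 18156 genes of the table, and all 9 held at least 10 insertions over both libraries, as did 11976 genes in all. Tcf7 is not analysed here. The counts came from a piggyBac transposon screen in RAH-1GFP, made from the rat haploid embryonic stem cell (haESC) line RAH-1 by adding a green fluorescent protein reporter at Rex1, a gene of the naive state. The transposon carried a splice acceptor, which traps transcripts of the gene it enters, and a red fluorescent marker by which mutant cells were sorted. In the library after screening, mutant cells had been differentiated at random as embryoid bodies, sorted for the fluorescence that remained and returned to medium with LIF and inhibitors of MEK and GSK3 (2i/LIF). The library before screening came from the mutant cells without that selection. All cells therefore carried the reporter and the transposon, and since each group had a single library, differences lack a replicate check and no p-value is given.

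As background, TCF/LEF proteins bind DNA through an HMG box and, without a Wnt signal, recruit TLE corepressors that keep target genes off. When beta-catenin accumulates, it binds the amino terminus of the TCF/LEF protein and turns the target on. In mouse embryonic stem cells Tcf7l1 acts mainly as a repressor of the naive pluripotency network, and its loss delays exit from pluripotency. The inhibitor of GSK3 in 2i medium stabilises beta-catenin and thereby relieves this repression. TLE proteins work as tetramers that are also brought to DNA by many other factors, and CtBP proteins are NADH-binding corepressors that link zinc finger factors to histone-modifying enzymes.

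The library after screening held 1287231 insertions in genes from 2351082 reads, and the library before screening held 1528935 from 2824155 reads. The share of a gene is its number of insertions per 100000 insertions in genes, and the ratio of its shares, after over before screening, is given with a 95% exact counting interval. Gene length was not taken into account, so shares were compared between libraries and not between genes. The median gene had 1.3 reads per insertion after and 1.36 before screening. The 9 matched genes together held 1689 insertions after screening (0.131% of those in genes) and 1120 before (0.0733%), a ratio of 1.79 (1.66 to 1.93). This sum leaned on single genes: it was 1.49 (1.36 to 1.62) without Tcf7l1, 1.52 (1.4 to 1.65) without Ctbp2 and 2.3 (2.12 to 2.51) without Tle2. Its interval covers counting error in the pooled insertions and not the spread between genes. Of the 9 genes, 5 had a ratio above 1 and 4 below. The interval excluded 1 for 8 of them, as it did for 78.6% of all measured genes. The median log2 ratio of the 9 genes was 1.00, the value of Tle3, against -0.01 over all measured genes. With 9 genes this median cannot set the list apart from the background.

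A ratio was called higher or lower where it differed at least 4-fold from 1 and the interval excluded 1. By this rule of size 3 members (Tle1, Tle4 and Ctbp2) were higher after screening, where 19.5% of all measured genes were, and 1 (Tcf7l2) was lower, where 21.7% were. At least 2-fold higher were 5 members, against 31.5% of all measured genes, and at least 2-fold lower were 2, against 32.4%. A list of 9 genes is too short to set these counts apart from the background. The families did not move as blocks either, since each of the 3 families held genes on both sides of 1.

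**Figure D1:**
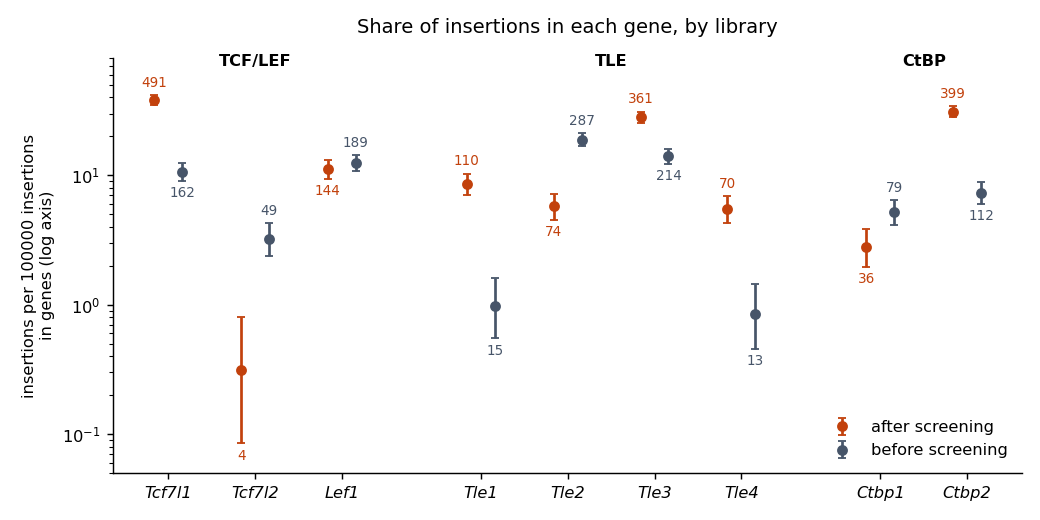
Share of insertions in each gene, per 100000 insertions in genes on a log axis, after (orange) and before screening (grey). Bars are 95% exact Poisson intervals and the printed numbers are insertions, for example 491 after and 162 before in Tcf7l1, and 4 after and 49 before in Tcf7l2.

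Tcf7l1 (ENSRNOG00000014753), the TCF factor that represses naive genes in mouse stem cells, held 491 insertions after screening and 162 before. Its share was 38.1 per 100000 (34.8 to 41.7) after and 10.6 per 100000 (9.03 to 12.4) before screening, a ratio of 3.60 (3.01 to 4.33). The intervals of the libraries did not overlap, yet the ratio lay under the 4-fold rule. Among the 2263 other genes with a total within 2-fold of that of Tcf7l1, 7.03% were called higher and 8.4% had a ratio at least as high. Over all measured genes, 79.3% had a ratio below that of Tcf7l1. Large ratios were rarer at its count in general, since 19.5% of genes were called higher over all counts.

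Tcf7l2 (ENSRNOG00000049232), which in mouse and human serves as the main partner of beta-catenin in the intestinal epithelium, stood at the other end. It held 4 insertions after screening and 49 before, which is 0.311 per 100000 (0.0847 to 0.796) after and 3.20 per 100000 (2.37 to 4.24) before. Its share was 10.3-fold lower (3.78 to 39.4). Of the 4071 other genes with a total within 2-fold, 28.0% were called lower and 19.2% had a ratio at least as low, so that a difference of this size was common among genes with so few insertions.

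Lef1 (ENSRNOG00000010121), a target of Wnt signalling as well as its effector, differed least. It held 144 insertions after screening and 189 before, a ratio of 0.905 (0.723 to 1.13), the only interval of the 9 that included 1. The ratio of Tcf7l1 was 3.97 times that of Lef1 (2.98 to 5.32) and 36.9 times that of Tcf7l2 (13.2 to 143). Summed over the 3 genes, the family held 639 insertions after and 400 before screening, a ratio of 1.90 (1.67 to 2.16). This sum rested on Tcf7l1, since Tcf7l2 and Lef1 alone held 148 after and 238 before (ratio 0.739, 0.597 to 0.911).

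Of the TLE genes, whose full-length products carry a WD40 domain that docks on repressors, Tle1 (ENSRNOG00000005882) had the highest ratio of all members. It held 110 insertions after screening and 15 before, or 8.55 per 100000 (7.02 to 10.3) after and 0.981 per 100000 (0.549 to 1.62) before, a ratio of 8.71 (5.06 to 16.1). Tle4 (ENSRNOG00000013239) held 70 after and 13 before, or 5.44 per 100000 (4.24 to 6.87) after and 0.850 per 100000 (0.453 to 1.45) before, a ratio of 6.40 (3.51 to 12.6). Both therefore had few insertions before screening, and their intervals were wide. Among genes with a total within 2-fold, 11.1% had a ratio at least as high as Tle1 and 17.2% one at least as high as Tle4.

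Tle3 (ENSRNOG00000013013) held 361 insertions after and 214 before screening, a ratio of 2.0 (1.69 to 2.38). Tle2 (ENSRNOG00000005874) went the opposite way. It held 74 insertions after screening and 287 before, or 5.75 per 100000 (4.51 to 7.22) after and 18.8 per 100000 (16.7 to 21.1) before, a share 3.27-fold lower (2.52 to 4.28). Tle2 was the TLE gene whose share was lower after screening, and the intervals of the libraries did not overlap. Among the 3362 other genes with a total within 2-fold of that of Tle2, 13.1% were called lower and 15.9% had a ratio at least as low. The ratio of Tle1 was 28.2 times that of Tle2 (15.3 to 55.2), and that of Tle3 was 6.53 times that of Tle2 (4.77 to 9.01). Over the 4 genes the counts were 615 after and 529 before, a ratio of 1.38 (1.23 to 1.55). This sum was decided by Tle2 and Tle3: it was 2.66 (2.28 to 3.10) without Tle2 and 0.958 (0.809 to 1.13) without Tle3.

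The CtBP genes also parted. Ctbp2 (ENSRNOG00000017326), whose locus in mammals also encodes the synaptic ribbon protein RIBEYE, held 399 insertions after screening and 112 before. Its share was 31.0 per 100000 (28.0 to 34.2) after and 7.33 per 100000 (6.03 to 8.81) before, a ratio of 4.23 (3.42 to 5.27). Among the 2660 other genes with a total within 2-fold, 8.38% were called higher and 7.67% had a ratio at least as high. The call was a close one, for the ratio was 3.66 (2.83 to 4.78) in disrupting insertions, 3.63 (3.06 to 4.32) in reads and 3.93 when scaled by the median ratio of genes, each under the 4-fold rule. Ctbp1 (ENSRNOG00000005428), which also takes part in membrane fission at the Golgi, held 36 insertions after and 79 before screening, a share 1.85-fold lower (1.23 to 2.82). In reads it was 2.38-fold lower (1.71 to 3.36), and in disrupting insertions 1.68-fold lower with an interval that included 1 (0.968 to 2.98). The ratio of Ctbp2 was 7.79 times that of Ctbp1 (4.90 to 12.6), and the sum of both gave 435 insertions after and 191 before, a ratio of 2.71 (2.28 to 3.22).

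**Figure D2:**
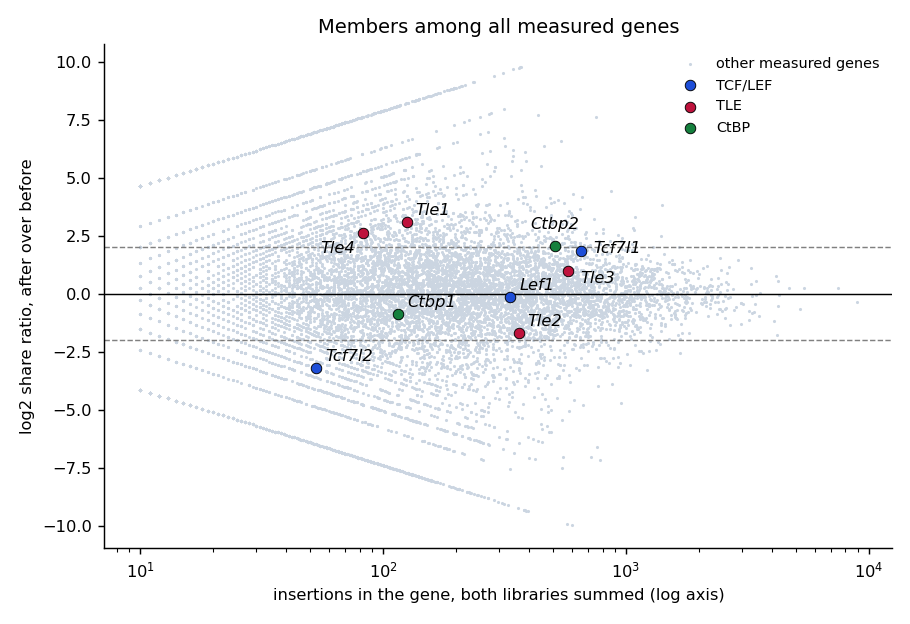
Log2 share ratio, after over before screening, against the insertions of each gene summed over both libraries (log axis), for all 11976 measured genes (grey) and the 9 members (coloured by family). Dashed lines mark a 4-fold difference, and Tcf7l1 (log2 ratio 1.85) and Ctbp2 (2.08) lie near the upper one, at a count where the cloud of genes is narrower than at the counts of Tle1, Tle4 and Tcf7l2.

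Ordered by ratio, the members were Tle1, Tle4, Ctbp2, Tcf7l1, Tle3, Lef1, Ctbp1, Tle2 and Tcf7l2. The intervals of the 3 steps among the first 4 members included equality. The ratio of Tle1 was 1.36 times that of Tle4 (0.559 to 3.27), that of Tle4 1.51 times that of Ctbp2 (0.792 to 3.09) and that of Ctbp2 1.18 times that of Tcf7l1 (0.885 to 1.56). Every later step excluded equality, the closest being Lef1 over Ctbp1 (1.67 times, 1.04 to 2.70) and Ctbp1 over Tle2 (1.77 times, 1.07 to 2.89). These intervals cover counting error alone, and were not adjusted for the number of pairs.

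**Figure D3:**
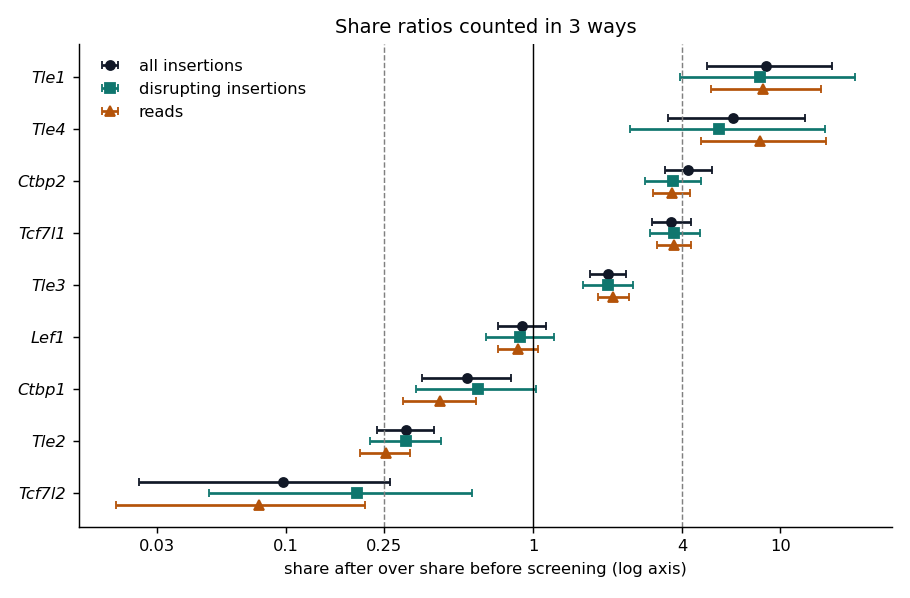
Share after over share before screening (log axis) for each member, counted in all insertions (circles), disrupting insertions (squares) and reads (triangles), with 95% exact counting intervals. Dashed lines mark 4-fold; the side of 1 is the same by all 3 counts for every gene, from Tle1 (8.71 by insertions) to Tcf7l2 (0.097).

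The table also told kinds of insertion apart. In each of the 9 genes and in both libraries the disrupting count was the total minus the reverse count, and insertions with no counted orientation were therefore read as lying in exons. Over all genes, 57.6% of the insertions were disrupting after and 56.5% before screening, and 49.5% after and 49.6% before of those with an orientation were forward. In Tcf7l1, 310 of 491 insertions were disrupting after screening (63.1%, 58.7 to 67.4) and 97 of 162 before (59.9%, 51.9 to 67.5). Its forward insertions, which place the splice acceptor so that it traps the transcript, numbered 184 after and 64 before, and its reverse insertions 181 after and 65 before. The ratio of its forward insertions was thus 1.03 times that of its reverse ones (0.677 to 1.57). In none of the 8 members for which this quotient could be formed did its interval exclude 1, with Tle1 lowest (0.761, 0.217 to 2.61) and Ctbp2 highest (1.17, 0.659 to 2.08). Tcf7l2 had 1 forward and 0 reverse insertions after screening and gave no quotient. The difference of the higher genes was therefore found in the disrupting orientation and in the opposite one alike, within these wide intervals.

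Exons and introns differed more in some members. The quotients below cover counting error alone. How many of all genes have one whose interval excludes 1 was not counted, so they have no background. In Ctbp2, insertions read as exonic numbered 86 after screening (21.6%, 17.6 to 25.9) and 48 before (42.9%, 33.5 to 52.6), whereas those with an orientation numbered 313 after and 64 before. The share of the oriented insertions was 5.81-fold higher (4.43 to 7.73) and that of the exonic ones 2.13-fold higher (1.48 to 3.10), a quotient of 2.72 (1.70 to 4.35). Tle3 showed the reverse. Its exonic insertions numbered 57 after and 12 before screening (ratio 5.64, 2.99 to 11.6) and its oriented ones 304 after and 202 before (1.79, 1.49 to 2.15), a quotient of 0.317 (0.151 to 0.617). Lef1 had 8 exonic insertions after screening and 2 before, a quotient of 0.183 (0.0186 to 0.935). In Tcf7l2, 3 of the 4 insertions left were exonic, against 1 of 49 before (0.0107, 0.00013 to 0.226). Tle1 had 11 exonic insertions after and 0 before, and its interval (0 to 2.97) included 1. So did those of Tle2 (1.18, 0.641 to 2.23) and Ctbp1 (0.284, 0.0653 to 1.13). In Tcf7l1 the exonic share was 25.7% (21.9 to 29.8) after and 20.4% (14.5 to 27.4) before screening, and the quotient of 0.741 (0.465 to 1.16) included 1. Tle4 had no exonic insertion in either library. Over all genes in which exon insertions could be read, their share was 16.3% after and 13.9% before.

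**Figure D4:**
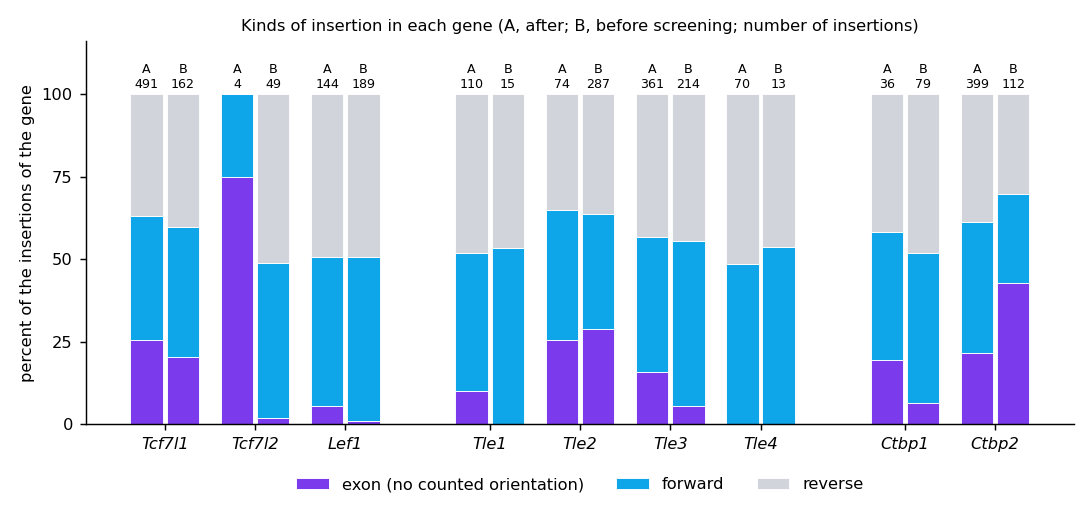
Percent of the insertions of each gene read as exonic (purple), forward (blue) and reverse (grey), after (A) and before screening (B), with the number of insertions above each bar. The exonic part is smaller after screening in Ctbp2 (21.6% after, 42.9% before) and larger in Tle3 (15.8% after, 5.61% before), while forward and reverse parts stay close to each other except in the 4 insertions of Tcf7l2.

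Reads gave the same side of 1 as insertions for every member, though not always a similar size. Ctbp1 was 1.85-fold lower by insertions and 2.38-fold lower by reads, and the ratio of Tle4 was 6.4 by insertions and 8.25 by reads. Tcf7l1 had 655 reads after and 212 before screening, or 1.33 reads per insertion after and 1.31 before. Across the members this quotient lay between 1.00 (Tcf7l2) and 1.47 (Tle4) after screening and between 1.15 (Tle4) and 1.77 (Ctbp1) before. Most insertions were thus supported by very few reads. The number of independent clones behind them was not measured.

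Neighbouring genes were looked up by their order in the RefSeq annotation of assembly GRCr8, taking the 5 nearest measured genes on each side. The study's methods name a mouse assembly, so it is open whether this order and the overlaps below hold in the build used. The genes beside Tcf7l1 had a median log2 ratio of 0.18 (range -7.75 to 5.38), against 1.85 for Tcf7l1 itself, and the next genes were Elmod3 at -1.90 and Kcmf1 at -0.05. Beside Ctbp2 the median was -0.70, with Fam53b at 0.01 and Edrf1 at -6.09. Tle2 (-1.70) lies next to Tle5 (2.20), and Tcf7l2 (-3.21) between Vti1a (-0.02) and Habp2 (-0.10), with a median of -1.23 around it. The genes beside Tle1 and Tle4 had medians of 0.93 and 0.82, and those beside Ctbp1 1.32, against -0.87 for Ctbp1 itself. Each of these sets of 10 neighbours held genes on both sides of 0. In the same annotation Ctbp2 overlaps Zranb1 and Lef1 overlaps Lef1l, and Tcf7l1, Tcf7l2, Lef1, Tle3 and Ctbp2 overlap loci with LOC symbols, so insertions in a shared stretch may be those of the other locus.

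The partners of these proteins were described by lists of symbols and counted at 2-fold, where 31.5% of all measured genes were higher and 32.4% lower, with a median log2 ratio of -0.01. Apart from Tle5 alone, the lists hold 5 to 13 measured genes, too few to be set apart from these shares. Tle5, a short Groucho protein without the WD40 domain that counteracts the full-length ones, held 13 insertions after screening and 3 before, a ratio of 5.15 (1.41 to 28.2). Of 11 measured cofactors of beta-catenin, 2 were higher and 2 lower (median log2 ratio -0.19). Bcl9, the adaptor between beta-catenin and Pygopus, held 1 insertion after and 154 before screening (130-fold lower, 22.9 to 5150), and Ldb1, an adaptor of LIM-domain and enhancer complexes, held 0 after and 66 before (at least 18.5-fold lower, against a floor of 3 insertions). Pygo2, a reader of methylated histone H3, held 69 after and 16 before (ratio 5.12, 2.94 to 9.46), and Tbl1x, of the NCoR complex, 70 after and 26 before (3.20, 2.01 to 5.23). These genes were named for their large ratios, and their paralogs Bcl9l and Pygo1 had log2 ratios of -0.34 and 0.25. Ctnnb1, which encodes beta-catenin, held no insertion in either library and is named after its values were seen. Such a count is compatible with shares of at most 0.000233% after and 0.000196% before screening.

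Of 12 measured nuclear inhibitors and modifiers of the pathway, 5 had a ratio of 2 or more and 2 a ratio of 0.5 or less (median log2 ratio 0.88). Over all measured genes these shares were 31.5% and 32.4%. With at least 50 insertions required 3 were higher. The share of all genes that were higher was not taken at this stricter minimum, nor was the number of listed genes passing it. The share of 31.5% is therefore no background for that count. Cby1, which binds beta-catenin and keeps it from TCF factors, held 18 insertions after and 0 before screening (at least 7.13-fold higher). Ctnnbip1 of the same list went the other way on more insertions, with 174 after and 610 before (2.95-fold lower, 2.49 to 3.51). Hic1, a repressor that also binds CtBP, held 28 after and 1 before (33.3, 5.50 to 1360), and the histone chaperone gene Daxx held 200 after and 37 before (6.42, 4.5 to 9.38). Sox17, an endoderm factor that antagonises beta-catenin, held 12 after and 57 before, a share 4.0-fold lower (2.12 to 8.19). Of 13 CtBP partners, 5 were higher and 3 lower (median 0.52). Rreb1, a zinc finger factor, held 248 after and 20 before (14.7, 9.33 to 24.5), and Ehmt2, the histone H3 lysine methyltransferase G9a, 575 after and 108 before (6.32, 5.14 to 7.84). Zfp217 held 17 after and 190 before (9.41-fold lower, 5.72 to 16.5) and Sall1 0 after and 24 before (at least 6.74-fold lower). Rcor1, the remaining lower partner, held 55 after and 396 before (6.06-fold lower, 4.56 to 8.19). Ehmt1 went against Ehmt2, with 131 after and 250 before (1.61-fold lower, 1.3 to 2.0).

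Of 13 TLE recruiting factors and histone deacetylases, 3 reached a 2-fold higher share and 2 a 2-fold lower one (median -0.39), where 31.5% and 32.4% of all measured genes did. With at least 50 insertions required 1 was higher, a count for which the share of 31.5% is again no background. Six3 and Foxa2, developmental factors that bind TLE proteins, held 38 and 16 insertions after screening and 0 before (at least 15.0-fold and 6.33-fold higher). Ncor1, a corepressor scaffold, held 303 after and 118 before (3.05, 2.46 to 3.81), and its deacetylase partner Hdac3 33 after and 174 before (4.44-fold lower, 3.05 to 6.65). Of 10 measured TCF target genes, 4 were higher and 1 lower (median 0.46). With at least 50 insertions required 2 of these target genes were higher, likewise without a background share at that minimum. Myc held 29 insertions after and 0 before (at least 11.5-fold higher), Notum, which removes the lipid of Wnt ligands, 13 after and 2 before (7.72, 1.75 to 70.5), and Tnfrsf19 16 after and 449 before (23.6-fold lower, 14.4 to 41.7). Cdx2 held 251 after and 47 before (6.34, 4.63 to 8.86) and Sp5 64 after and 12 before (6.33, 3.39 to 12.9). The remaining measured targets stayed under 2-fold. Among them, Axin2 held 557 after and 447 before (1.48, 1.3 to 1.68) and Nkd1 162 after and 339 before (0.568, 0.468 to 0.686).

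Of 6 measured genes that Tcf7l1 holds down in mouse stem cells, 4 had at least a 2-fold higher share and 0 a 2-fold lower one, beside 31.5% and 32.4% of all measured genes. The median log2 ratio of the 6 genes was 1.73, and with at least 50 insertions required 3 were higher. No share of all genes was taken at that stricter minimum, so this count cannot be set against 31.5%. Tbx3 held 113 insertions after and 27 before screening (4.97, 3.24 to 7.87) and Tfcp2l1 91 after and 48 before (2.25, 1.57 to 3.26), while Klf2 held 81 after and 0 before (at least 32.1-fold higher) and Nr0b1 29 after and 5 before (6.89, 2.64 to 22.8). The remaining measured genes of this list stayed under 2-fold: Esrrb with 43 after and 46 before (1.11, 0.715 to 1.72) and Nr5a2 with 409 after and 352 before (1.38, 1.19 to 1.6). Nanog, also on the list, held 0 insertions in both libraries and was not measured. All these counts are of insertions into the naive factors themselves and say nothing of their transcripts. In the destruction complex, which keeps beta-catenin low, 2 of 5 measured genes were higher and 1 lower (median -0.46). Gsk3b held 286 insertions after and 61 before (5.57, 4.21 to 7.47) and Apc 64 after and 6 before (12.7, 5.51 to 35.8), whereas Gsk3a held 0 after and 204 before (at least 57.3-fold lower) and Fbxw11, a ubiquitin ligase subunit, 260 after and 493 before (1.60-fold lower, 1.37 to 1.86).

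**Figure D5:**
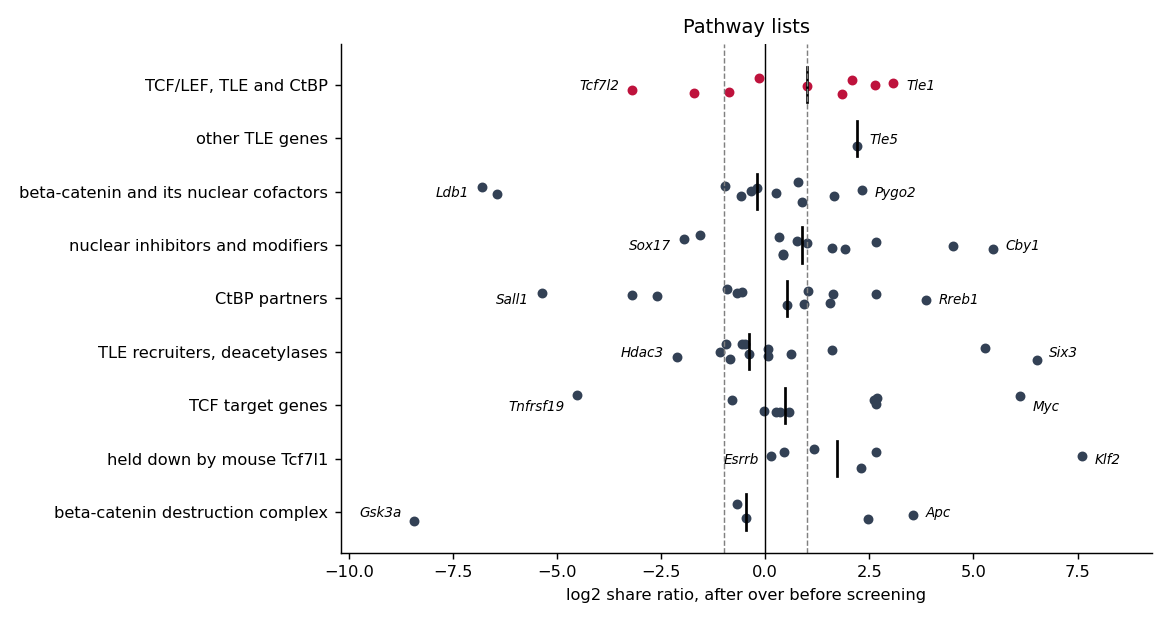
Log2 share ratio, after over before screening, of each measured gene by list, with the 9 members in red, a black tick at each median and dashed lines at 2-fold; the lowest and highest genes are named and vertical position within a list is arbitrary. The members span -3.21 (Tcf7l2) to 3.08 (Tle1), and the list of genes held down by mouse Tcf7l1 has no gene below 0.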

How the data were processed

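PiggyBac insertions were measured in 2 libraries of rat haESCs, 1 after and 1 before screening, grouped by the labels. The labels speak of RNA, with HISAT2 2.0.5 and featureCounts 1.5.0-p3 among the tools in the submitters' processing notes, but the table holds the output of splinkerette PCR, which amplifies the DNA beside a transposon end. Per the study's methods, the FASTX toolkit removed transposon tags and HaSAPPy assigned insertions to genes. Their versions are not given in the sources used here. Those methods name a mouse assembly while the identifiers are rat, so no position is printed. The authors deposited raw counts per gene of insertions, disrupting, forward and reverse insertions, and reads. A trailing digit in the column names has no counterpart in the labels. The other 35 columns (annotation, repeated sums, ranks, the authors' folds and a Fisher p-value) were not used.

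Insertions assigned to no gene (57.9% after, 57.3% before screening) stayed out of totals. Ratios of shares have 95% Clopper-Pearson intervals of the conditional binomial share, quotients of ratios the interval of the conditional odds ratio. Molecular identifiers on the PCR reads are not named in the study's methods, and none were used here. With 1 library in each group, all intervals and floors describe counting error alone. Genes needed 10 insertions over both libraries, log2 ratios used a pseudocount of 0.5, and a count of 0 was set to a floor of 3 for bounds. Values given as "at least" leave out the counting error of the other count and are therefore not 95% limits. All members are named, and up to 4 genes of each list with the largest log2 ratios in either direction, with a few further list genes beside them. Members, lists and rules were chosen with earlier results of these data known. Intervals were also run on simulated Poisson counts. That is the counting model they assume, so the run says nothing of how real libraries vary. Python 3.11.15, SciPy 1.17.1 and pandas 2.3.3 were used.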

Additional observations from a re-analysis of the deposited data

How the results depend on the processing

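No paired analysis was possible because only 1 library stood on each side, and no replicate could be left out. Each member was recounted in reads, in disrupting insertions, with halved insertions, with scaling by the median ratio and with totals that include unassigned insertions. All 45 such values stayed within the counting interval and on their side of 1. The summed ratio of the CtBP genes was 2.22 in reads, against 2.71 in insertions, and the cause was not tested. A 2-fold rule called 5 members higher and 2 lower, in place of 3 and 1, by its construction. In reads, in disrupting insertions and with median scaling 2 members were called higher, since Ctbp2 came under 4-fold. Median scaling shifted every log2 ratio by -0.11. Of 48 list counts, 44 stayed within 1.5-fold. Since these settings mostly reuse the same counts, this says little of how a second library would turn out. The 4 insertions of Tcf7l2 after screening and the 13 and 15 of Tle4 and Tle1 before it limit the precision of their ratios.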

Other observations

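The symbol Tcf3 is also an older name of Tcf7l1 in RefSeq, but the entry Tcf3 of the table has its own identifier (ENSRNOG00000051499) and belongs to the E proteins, basic helix-loop-helix factors outside the TCF/LEF family. It held 346 insertions after screening and 445 before, a ratio of 0.924 (0.800 to 1.07). The other E proteins, Tcf4 with 146 after and 205 before (0.846, 0.679 to 1.05) and Tcf12 with 97 after and 142 before (0.811, 0.620 to 1.06), also had intervals that included 1. These genes were chosen after their values were seen.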
